A study of Homo sapiens with 12 samples.

Results

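The genes described here are 10 genes of the chemokine system, 6 ligands (CCL3, CCL4, CCL5, CXCL8, CXCL10 and CXCL11) and 4 receptors (CXCR3, CXCR4, CCR1 and CCR10), of 19775 genes to which a probe set of the array could be assigned. CCL4, CXCL10 and CXCR3 were picked because their values changed in these arrays, so their values are given as a description with no test. The other 7 genes were chosen by name, but with earlier results of these data known, so their tests are not independent of that choice. The cells were H929, a human myeloma cell line, and each of the 4 groups holds 3 samples labelled as biological replicates, each on 1 Affymetrix U133 Plus 2.0 array. Combination cells received 1 µM tosedostat, called CHR2797 in the labels, together with 250 nM CHR-3996. CHR-3996 cells received 250 nM CHR-3996 alone, Tosedostat cells received 1 µM tosedostat alone, and all 3 treatments lasted 24 h. Untreated cells received neither compound. CHR-3996 inhibits histone deacetylases, which remove acetyl groups from histones, and tosedostat inhibits aminopeptidases, which trim amino acids from peptides. Whether the samples of each group were grown as separate cultures is not stated, so the p-values speak only for the spread among these samples, and all 4 groups rest on a single cell line.

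Chemokines are small secreted proteins that direct the migration of leukocytes, and they act through membrane receptors that signal through inhibitory G proteins. CCL3, CCL4 and CCL5 bind CCR1 or its relatives, CXCL8 attracts neutrophils, CXCL10 and CXCL11 bind CXCR3, CXCL12 binds CXCR4, and CCL27 and CCL28 bind CCR10. Myeloma cells are malignant plasma cells, and in the bone marrow CXCL12 helps to retain them while CCL3 is known to promote bone resorption by osteoclasts.

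CXCL10 and CXCL11 encode ligands of the same receptor and are neighbours on chromosome 4, so the 250 bases upstream of each RefSeq start are shown as a pair, from 5′ to 3′ on the strand of the gene in GRCh38.p14. Capitals mark matches to the κB consensus, the motif of NFκB factors (GGG, a purine, any 2 bases, 2 pyrimidines and CC), and to the core of the interferon-stimulated response element, ISRE (GAAA, any 2 bases and GAAA again). The CXCL10 promoter lies at chr4:76023498-76023747 on the minus strand.
CXCL10: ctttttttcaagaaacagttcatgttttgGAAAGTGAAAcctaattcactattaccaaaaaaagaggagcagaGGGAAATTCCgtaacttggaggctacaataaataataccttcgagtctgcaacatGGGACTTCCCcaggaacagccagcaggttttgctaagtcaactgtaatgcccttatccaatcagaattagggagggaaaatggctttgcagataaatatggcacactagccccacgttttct
The CXCL11 promoter lies at chr4:76036071-76036320, also on the minus strand.
CXCL11: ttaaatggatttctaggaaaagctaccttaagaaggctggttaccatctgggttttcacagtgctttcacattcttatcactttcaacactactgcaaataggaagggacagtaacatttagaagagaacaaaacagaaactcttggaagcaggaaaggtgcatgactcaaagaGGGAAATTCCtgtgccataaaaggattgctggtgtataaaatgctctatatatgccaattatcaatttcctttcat

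The CXCL10 promoter held the κB consensus at 2 positions, from 177 to 168 and from 122 to 113 bases before the start, and the ISRE core from 221 to 212 bases before the start. The κB match nearer the start reads as a match on both strands. In the CXCL11 promoter the κB consensus stood from 76 to 67 bases before the start, overlapping none of the other motifs. Of 35116 promoters of this length searched on both strands, 9.96% held the κB consensus and 3.02% held the ISRE core. TGANTCA, the AP-1 motif, was present in 6.57% of them and the TATA motif TATAAA in 10.7%. CXCL11 held TGANTCA from 87 to 81 and TATAAA from 42 to 37 bases before the start, and CXCL8 held TGANTCA from 137 to 131 and TATAAA from 31 to 26 bases before it. None of the 4 motifs was found in these windows for CCL3, CXCR3, CXCR4 or CCR1. Of the 10 genes, 7 were matched to the RefSeq promoters, and CCL4, CCL5 and CCR10 were not. Among protein-coding genes, CCL3 and CCL4 are also direct neighbours, on chromosome 17.

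The deposited values are log2 expression values from dChip, 1 for each probe set, which is a group of probes for 1 transcript. A probe set was tested if, on 3 or more of the 12 arrays, its value exceeded the 40th percentile of that array, a limit of 4.41 to 4.65, and it was called changed at a limma Benjamini-Hochberg adjusted p under 0.05 over all 36395 probe sets tested. Of 18 probe sets of the 10 genes, 15 passed this filter, and both of CXCL11 and 1 of CXCL8 did not. Replicate arrays correlated at r of 0.978 to 0.983. The array medians lay between 5.26 and 5.31 in Combination cells, between 5.24 and 5.29 in CHR-3996 cells, between 5.04 and 5.07 in Tosedostat cells and between 5.004 and 5.07 in Untreated cells. The 3′ to 5′ difference of ACTB probe sets, a measure of RNA length, was 1.08 to 1.38 on the log2 scale in Combination cells, 1.43 to 1.76 in CHR-3996 cells, 1.97 to 2.19 in Tosedostat cells and 1.98 to 2.32 in Untreated cells. For GAPDH probe sets it was 0.27 to 0.45 in Combination cells, 0.39 to 0.51 in CHR-3996 cells, 0.37 to 0.52 in Tosedostat cells and 0.38 to 0.49 in Untreated cells, so the groups overlapped. The part of either difference in the results was not tested. All 8 plasma cell markers lay above the 80th percentile on every array, among them SDC1, TNFRSF17 and IRF4. Of 24 measured markers of T, NK and mature B cells, monocytes, granulocytes, stroma and endothelium, 11 exceeded the 40th percentile on none of the arrays, among them CD3D, CD14, MPO, ELANE, VWF and CDH5. Another 8 exceeded it on all 12 arrays, CD3E and CD2 of T cells, NCAM1 of NK cells, PAX5 of B cells, CSF1R of monocytes, CSF3R of granulocytes, COL1A1 of stroma and PECAM1 of endothelium, and 5 exceeded it on some arrays. The summed linear level of the 4 NK cell markers was 2607 to 3634 in Combination cells, 2966 to 3237 in CHR-3996 cells, 619 to 745 in Tosedostat cells and 701 to 825 in Untreated cells. Of these 4, NCAM1, which myeloma cells can carry too, lay above the 80th percentile on every array, and KLRD1, NCR1 and KLRF1 stayed under the 60th percentile on every array. The sum of the plasma cell markers also differed, at 24144 to 25057 in Combination cells, 18148 to 28306 in CHR-3996 cells, 39722 to 43509 in Tosedostat cells and 38832 to 41176 in Untreated cells. Against Untreated cells CD38 went the other way, at log2 means of 9.69 in Combination, 9.11 in CHR-3996 and 8.89 in Untreated cells. So did PRDM1, at 11.52 in Combination, 11.45 in CHR-3996 and 11.32 in Untreated cells. The sum of 3 mature B cell markers was 98.1 to 256 in Combination cells, 83.9 to 252 in CHR-3996 cells, 53.9 to 81.4 in Tosedostat cells and 67.2 to 86.4 in Untreated cells. The CHR-3996 and Untreated ranges of this sum overlapped. PAX5 averaged 6.66 in Combination cells, 6.40 in CHR-3996 cells, 4.89 in Tosedostat cells and 5.12 in Untreated cells on the log2 scale. MS4A1 varied little, at 4.83 in Combination cells, 4.93 in CHR-3996 cells, 4.76 in Tosedostat cells and 4.88 in Untreated cells. CD22 exceeded the 40th percentile on none of the arrays. The sum of 3 monocyte markers was 109 to 141 in Combination cells, 114 to 128 in CHR-3996 cells, 92.0 to 94.5 in Tosedostat cells and 85.4 to 107 in Untreated cells, with the log2 value of LYZ at 4.88 in Combination cells, 4.87 in CHR-3996 cells, 3.02 in Tosedostat cells and 2.84 in Untreated cells. LYZ exceeded the 40th percentile on 4 of the 12 arrays. CD14, which exceeded it on none, averaged 3.08 in Combination cells, 3.64 in CHR-3996 cells, 3.53 in Tosedostat cells and 3.53 in Untreated cells. The part of these marker lists in the results was not tested.

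Among the 7 genes chosen by name, 6 could be tested. In Combination against Untreated cells 4 of the 6 were called, where 46.1% of all probe sets tested were called. Of the 4, 3 were higher, where 32.0% of all probe sets were called higher, and 1 was lower, where 14.1% were. With CHR-3996 alone the counts were again 3 higher and 1 lower, beside 29.4% and 15.7% of all probe sets and 45.1% in either direction. With tosedostat alone 2 were called higher and 0 lower, beside 3.23% and 0.451% and 3.68% in either direction, and 0 of the 6 reached even an unadjusted p under 0.05 downwards. These 3 comparisons share the Untreated arrays. Over the 6 genes the median log2 difference from Untreated cells was 0.72 in Combination cells, 0.60 in CHR-3996 cells and 0.23 in Tosedostat cells, against 0.14, 0.11 and 0.03 over all probe sets tested. The arrays of cells that received CHR-3996 are brighter at the median, and under quantile normalization the medians over all probe sets were -0.12, -0.10 and -0.02. Of the calls over all probe sets, 69.3% were higher for Combination cells and 65.1% for CHR-3996 cells, and under quantile normalization these shares were 46.5% and 47.6%. None of the calls made for the 6 genes changed its direction under either other scaling, quantile normalization or equal array medians.

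**Figure D1:**
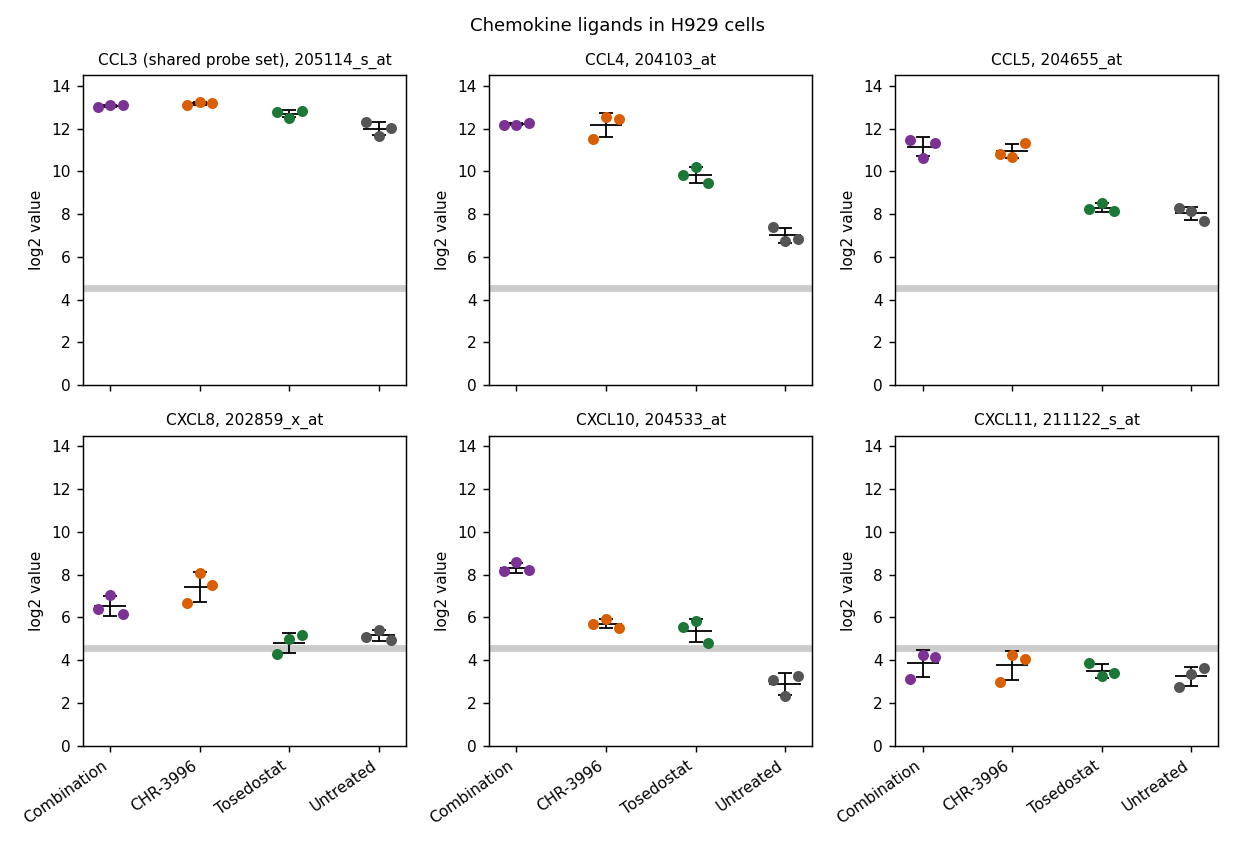
Log2 expression values (vertical axis) of the 6 ligands in Combination, CHR-3996, Tosedostat and Untreated cells, 1 point per array in the order of the replicate numbers, with the mean (line) and SD (bars) of 3 arrays. The grey band spans the 40th percentiles of the 12 arrays. CCL5 stood between 10.65 and 11.46 in Combination and CHR-3996 cells and between 7.68 and 8.53 in Tosedostat and Untreated cells, while CXCL10 stood above 8 only in Combination cells.

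Among the ligands of the CC family, CCL5 rose with both treatments that held CHR-3996. CCL5, which attracts T cells and monocytes through CCR1 and related receptors, had log2 values of 11.46, 10.65 and 11.34 in Combination cells, 10.83, 10.67 and 11.30 in CHR-3996 cells, 8.24, 8.53 and 8.14 in Tosedostat cells, and 8.29, 8.13 and 7.68 in Untreated cells. The Combination and CHR-3996 arrays overlapped each other and lay above every array of the other groups, while Tosedostat and Untreated arrays overlapped. In a bulk RNA sample, fewer cells of a type and less RNA per cell cannot be told apart. CCL5 was 8.66-fold higher in Combination than in Untreated cells, or 3.11 on the log2 scale (SE 0.25, limma adjusted p = 2.4e-06), and 7.48-fold higher in CHR-3996 than in Untreated cells, or 2.90 on the log2 scale (SE 0.25, limma adjusted p = 4.1e-06). Tosedostat alone gave a log2 fold change of 0.27, with a 95% interval of -0.28 to 0.82, and was not called (limma adjusted p = 0.67). Adding CHR-3996 to tosedostat raised CCL5 by 2.85 on the log2 scale (limma adjusted p = 7.1e-06), close to its change when given alone, and the interaction of the compounds was -0.06, with an interval of -0.83 to 0.71. Combination and CHR-3996 cells differed by 0.21, with an interval of -0.33 to 0.76 (limma adjusted p = 0.83). All 3 probe sets of CCL5 were called higher in both of these comparisons with Untreated cells, with log2 fold changes of 2.81 to 3.43 in Combination cells and 2.69 to 3.21 in CHR-3996 cells.

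CCL4 was picked for its change, and its 4 groups formed 3 levels. CCL4, which attracts monocytes and T cells, had log2 values of 12.17, 12.19 and 12.25 in Combination cells, 11.52, 12.55 and 12.47 in CHR-3996 cells, 9.81, 10.18 and 9.45 in Tosedostat cells, and 7.40, 6.74 and 6.85 in Untreated cells. The Combination arrays lay within the range of the CHR-3996 arrays, the Tosedostat arrays lay below both, and the Untreated arrays lay below all others. Against Untreated cells the mean differed by 5.20 in Combination cells, 5.18 in CHR-3996 cells and 2.82 in Tosedostat cells on the log2 scale, or 36.9-fold, 36.3-fold and 7.06-fold. The difference made by tosedostat was 2.82 when it was given alone and 0.02 when it was added to CHR-3996. The difference made by CHR-3996 was 5.18 alone and 2.39 when it was added to tosedostat. The Combination arrays were also the most alike of any group, with an SD of 0.04, where the SD was 0.57 in CHR-3996 cells, 0.36 in Tosedostat cells and 0.35 in Untreated cells (n = 3 each).

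CCL3, a ligand of CCR1, is measured by a single probe set that the annotation assigns to CCL3, CCL3L1 and CCL3L3 together, so the values below belong to the 3 genes jointly. The shared probe set read 13.00, 13.08 and 13.10 in Combination cells, 13.10, 13.24 and 13.21 in CHR-3996 cells, 12.77, 12.50 and 12.80 in Tosedostat cells, and 12.29, 11.65 and 12.05 in Untreated cells. Every array of each treated group lay above every Untreated array. The log2 fold change of the CCL3 probe set against Untreated cells was 1.06 in Combination cells (SE 0.15, limma adjusted p = 0.00019), 1.18 in CHR-3996 cells (SE 0.15, limma adjusted p = 8.5e-05) and 0.70 in Tosedostat cells (SE 0.15, limma adjusted p = 0.034). The call under tosedostat was lost without any 1 of 8 arrays, replicates 2 and 3 of Combination, replicate 3 of CHR-3996, replicates 1, 2 and 3 of Tosedostat, and replicates 2 and 3 of Untreated, at adjusted p-values of 0.051 to 0.11. It was also lost with no filter, at 0.085, and when only the Tosedostat and Untreated arrays were fitted, at 0.13, and over all alternatives its adjusted p ran from 0.0037 to 0.13. Combination cells differed by 0.37 from Tosedostat cells (limma adjusted p = 0.080) and by -0.12 from CHR-3996 cells, with an interval of -0.46 to 0.22 (limma adjusted p = 0.84). The difference from Tosedostat cells was called under quantile normalization (limma adjusted p = 0.042), with a variance trend (0.027) and without Untreated replicate 2 (0.033). Over all alternatives its adjusted p ran from 0.027 to 0.49.

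Of the CXC family, CXCL8, also known as interleukin 8, rose with CHR-3996 and with the combination on its main probe set. The main probe set of CXCL8 read 6.39, 7.06 and 6.14 in Combination cells, 6.65, 8.08 and 7.53 in CHR-3996 cells, 4.29, 4.97 and 5.18 in Tosedostat cells, and 5.09, 5.42 and 4.95 in Untreated cells. The arrays of cells with CHR-3996, given alone or in combination, lay above every Tosedostat and Untreated array, and the Tosedostat and Untreated arrays overlapped. The log2 fold change of CXCL8 against Untreated cells was 1.38 in Combination cells (SE 0.37, limma adjusted p = 0.0094), 2.27 in CHR-3996 cells (SE 0.37, limma adjusted p = 0.00039) and -0.34 in Tosedostat cells (SE 0.37, limma adjusted p = 0.73). Combination cells stood 1.71 above Tosedostat cells (limma adjusted p = 0.0029) and differed by -0.89 from CHR-3996 cells, which was not called (limma adjusted p = 0.43, unadjusted p = 0.0334). A second probe set of CXCL8 did not pass the filter and averaged 4.47 ± 0.71 in Combination cells, 4.56 ± 0.04 in CHR-3996 cells, 3.59 ± 0.41 in Tosedostat cells and 4.38 ± 0.67 in Untreated cells (SD, n = 3 each), so it did not separate Combination or CHR-3996 arrays from Untreated arrays.

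CXCL10 was picked for its change, and its level was highest in Combination cells. CXCL10, which interferon gamma induces and which attracts activated T cells through CXCR3, read 8.19, 8.60 and 8.20 in Combination cells, 5.68, 5.91 and 5.52 in CHR-3996 cells, 5.54, 5.82 and 4.79 in Tosedostat cells, and 3.09, 2.31 and 3.27 in Untreated cells. The Combination arrays lay above all others, the CHR-3996 and Tosedostat arrays overlapped, and all 3 Untreated arrays lay below the others and below the 40th percentile of their array. Between treated groups, Combination cells stood 2.63 above CHR-3996 cells and 2.95 above Tosedostat cells on the log2 scale. Since the Untreated values of CXCL10 lay under the limit of the filter, the size of its differences from Untreated cells is not used here.

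CXCL11, the neighbour of CXCL10 and a ligand of CXCR3 too, could not be tested. Its brighter probe set read 3.12, 4.25 and 4.16 in Combination cells, 2.97, 4.25 and 4.04 in CHR-3996 cells, 3.86, 3.26 and 3.38 in Tosedostat cells, and 2.76, 3.34 and 3.63 in Untreated cells. All groups overlapped. The other probe set averaged 4.28 ± 0.44 in Combination cells, 4.07 ± 0.51 in CHR-3996 cells, 3.05 ± 0.35 in Tosedostat cells and 2.17 ± 0.64 in Untreated cells (SD, n = 3 each), and its Combination and CHR-3996 arrays lay above its Untreated arrays. Since neither probe set passed the filter on low values and they differed from each other, no change of CXCL11 is given.

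**Figure D2:**
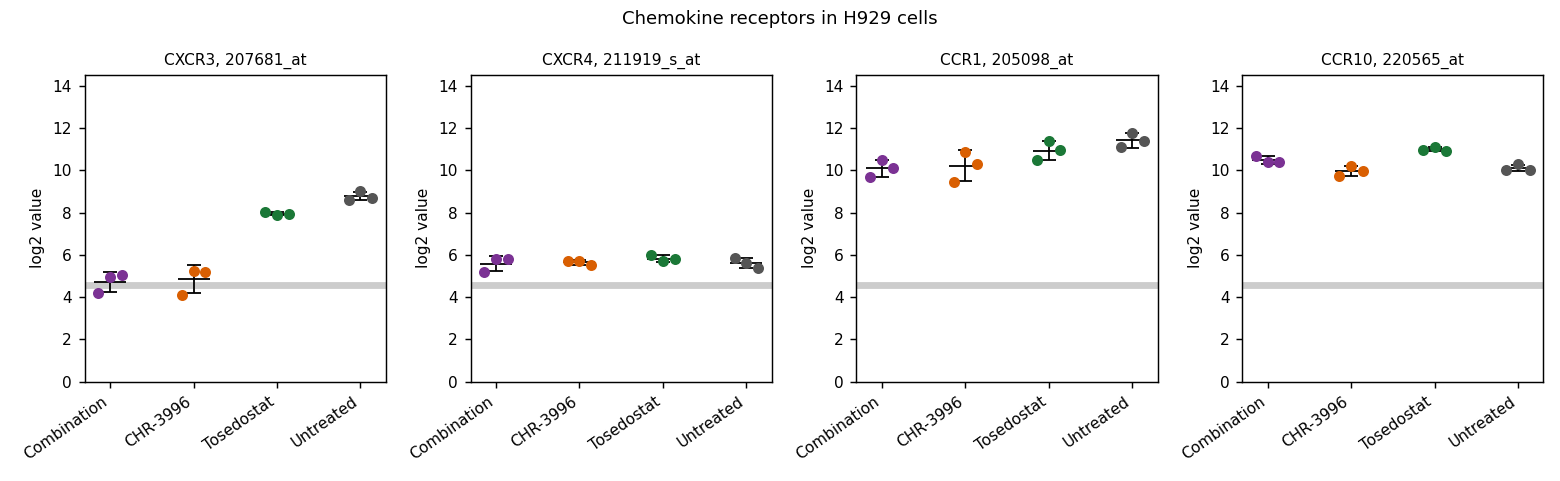
Log2 expression values (vertical axis) of the 4 receptors in Combination, CHR-3996, Tosedostat and Untreated cells, 1 point per array, with the mean (line) and SD (bars) of 3 arrays and the 40th percentiles of the 12 arrays as a grey band. CXCR3 lay between 4.08 and 5.24 in Combination and CHR-3996 cells and between 7.89 and 9.00 in Tosedostat and Untreated cells, while the CXCR4 groups overlapped.

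Among the receptors, CXCR3 was picked for its change, so it is not ranked against the others. CXCR3, the receptor of CXCL10 and CXCL11, read 4.19, 4.93 and 5.06 in Combination cells, 4.08, 5.24 and 5.20 in CHR-3996 cells, 8.02, 7.89 and 7.95 in Tosedostat cells, and 8.61, 9.00 and 8.70 in Untreated cells. The Combination and CHR-3996 arrays overlapped and lay below all Tosedostat arrays, which in turn lay below all Untreated arrays. The difference from Untreated cells was -4.04 in Combination cells, -3.93 in CHR-3996 cells and -0.82 in Tosedostat cells on the log2 scale. Combination and CHR-3996 values lay near the limit of the filter, which 2 of 3 arrays exceeded in each group, so the size of their differences is uncertain. A second probe set of CXCR3 also had its Combination and CHR-3996 arrays below the Tosedostat arrays and those below the Untreated arrays, with smaller log2 differences from Untreated cells, -1.84 in Combination cells, -1.96 in CHR-3996 cells and -0.55 in Tosedostat cells, and its Combination and CHR-3996 arrays averaged 4.16 ± 0.41 and 4.04 ± 0.52 (SD, n = 3 each), under the limit of the filter.

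CCR1, a receptor of CCL3 and CCL5, fell with CHR-3996 and with the combination. CCR1 read 9.69, 10.49 and 10.12 in Combination cells, 9.45, 10.88 and 10.31 in CHR-3996 cells, 10.47, 11.40 and 10.94 in Tosedostat cells, and 11.08, 11.76 and 11.39 in Untreated cells. Replicate 2 was the highest array in all 4 groups, the Combination and CHR-3996 arrays lay below every Untreated array, and the Tosedostat arrays overlapped the arrays of the other 3 groups. CCR1 fell by 1.32 on the log2 scale in Combination cells (SE 0.36, limma adjusted p = 0.012) and by 1.20 in CHR-3996 cells (SE 0.36, limma adjusted p = 0.019), both against Untreated cells. The call with CHR-3996 was lost without CHR-3996 replicate 1, at a log2 fold change of -0.82 (adjusted p = 0.076), and without Untreated replicate 2, at -1.02 (adjusted p = 0.071), while over all alternatives its adjusted p ran from 0.00012, with the replicate number as a block, to 0.076. Tosedostat alone gave -0.48 (limma adjusted p = 0.59), with an interval of -1.28 to 0.32. A second probe set of CCR1 had log2 fold changes of -1.97 in Combination cells (limma adjusted p = 0.0022), -1.81 in CHR-3996 cells (limma adjusted p = 0.0037) and -0.86 in Tosedostat cells (limma adjusted p = 0.34). Between Combination and Tosedostat cells the main probe set gave -0.84 (limma adjusted p = 0.089) and the second gave -1.11 (limma adjusted p = 0.049). The call there depends on the probe set and on the settings. Under quantile normalization (limma adjusted p = 0.046) and equal array medians (limma adjusted p = 0.032) the main probe set was called there too. It was also called without CHR-3996 replicate 1 (limma adjusted p = 0.045) and with the replicate number as a block (limma adjusted p = 0.0012). Over all alternatives its adjusted p in that comparison ran from 0.0012 to 0.26.

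CCR10, the receptor of CCL27 and CCL28 and a receptor of antibody-secreting cells, was the receptor that rose with tosedostat alone. CCR10 read 10.69, 10.39 and 10.37 in Combination cells, 9.74, 10.20 and 9.98 in CHR-3996 cells, 10.97, 11.10 and 10.91 in Tosedostat cells, and 10.01, 10.28 and 10.04 in Untreated cells. The Tosedostat arrays lay above all others, the Combination arrays lay above the CHR-3996 and Untreated arrays, and those last groups overlapped. CCR10 was 1.85-fold higher in Tosedostat than in Untreated cells, or 0.89 on the log2 scale (SE 0.15, limma adjusted p = 0.0088), and it kept the call in every alternative in which it was tested by limma. With CHR-3996 alone the difference was -0.14, with an interval of -0.46 to 0.19 (limma adjusted p = 0.50), and with the combination it was 0.38, with an interval of 0.05 to 0.70 (limma adjusted p = 0.057). The combination was called higher than Untreated cells in 5 alternatives, with the filter at the 60th percentile (limma adjusted p = 0.034), with a variance trend (limma adjusted p = 0.027) and without CHR-3996 replicate 1 (0.037), CHR-3996 replicate 2 (0.042) or Untreated replicate 2 (0.042), and over all alternatives the adjusted p ran from 0.027 to 0.51. Combination cells were 0.51 lower than Tosedostat cells (SE 0.15, limma adjusted p = 0.016), and this call was lost without Combination replicate 2, Combination replicate 3 or Tosedostat replicate 2, at adjusted p-values of 0.055 to 0.058, in a range of 0.00095 to 0.058 over all alternatives. Combination cells differed by 0.51 from CHR-3996 cells, which was not called (limma adjusted p = 0.27, unadjusted p = 0.00525).

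CXCR4, the receptor of CXCL12, was not called in any comparison on any of its 3 probe sets with the values scaled as deposited. Its main probe set read 5.17, 5.79 and 5.79 in Combination cells, 5.72, 5.69 and 5.50 in CHR-3996 cells, 5.99, 5.68 and 5.78 in Tosedostat cells, and 5.86, 5.63 and 5.38 in Untreated cells. All 4 groups overlapped. Under quantile normalization CXCR4 was called lower in Combination than in Tosedostat cells, at a log2 difference of -0.51 (limma adjusted p = 0.042), and over all alternatives of that comparison the adjusted p ran from 0.042 to 0.91. The 95% interval of the log2 difference from Untreated cells was -0.45 to 0.37 in Combination cells, -0.40 to 0.43 in CHR-3996 cells and -0.22 to 0.61 in Tosedostat cells. A dimmer probe set of CXCR4 varied far more, between 1.93 and 6.87 over the 12 arrays, and its interval under CHR-3996 was -3.33 to 0.15.

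**Figure D3:**
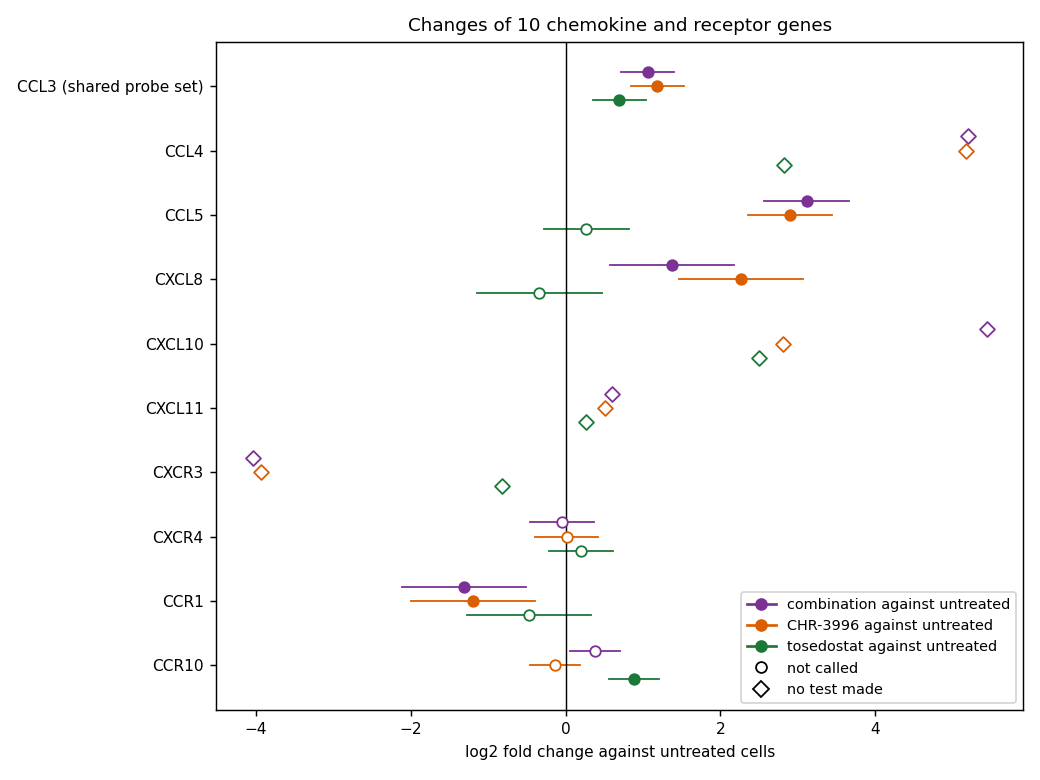
Log2 fold change against Untreated cells (horizontal axis) of the main probe set of each of the 10 genes in Combination, CHR-3996 and Tosedostat cells, with the 95% interval of limma as a line. Filled points are called, open points are not called, and diamonds carry no test because the gene was picked for its change or did not pass the filter. CCL5 was at 3.11, 2.90 and 0.27, whereas CCR10 was at 0.38, -0.14 and 0.89.

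**Figure D4:**
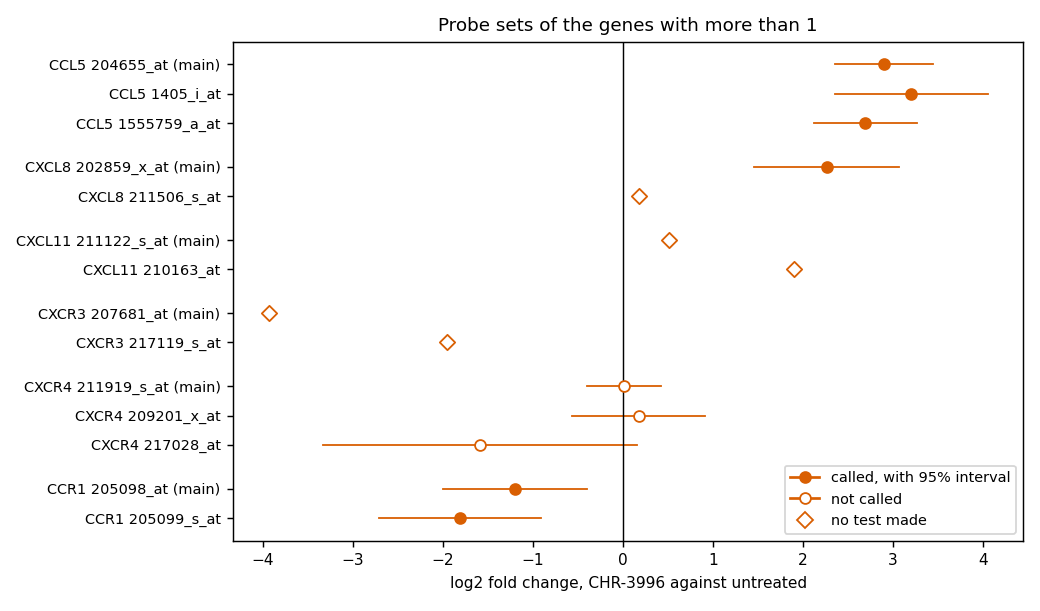
Log2 fold change in CHR-3996 cells relative to Untreated cells (horizontal axis) for every probe set of the 6 genes that have several, with 95% intervals where limma was used. Filled points are called, open points are not called, and diamonds carry no test. The 3 probe sets of CCL5 lie together, from 2.69 to 3.21, while those of CXCR4 run from -1.59 to 0.17.

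The combination was compared with each compound to see what the second compound added. Against Tosedostat cells, 2 of the 6 tested genes were called higher in Combination cells, CCL5 and CXCL8, and 1 was called lower, CCR10, beside 28.4% and 13.7% of all probe sets tested and 42.1% in either direction. Over the 6 genes the median log2 difference was 0.07, against 0.13 over all probe sets. Against CHR-3996 cells 0 of the 6 were called by limma in either direction, beside 0.0632% of all probe sets, 0.0522% called higher and 0.0110% called lower, and 2 of the 6 reached an unadjusted p under 0.05, CCR10 upwards and CXCL8 downwards. The criteria of the study's methods also called 0 of the genes there. The interaction, in which the combination is set against the sum of both single differences, was called for 0 of the 6, beside 0.206% of all probe sets, 0.0220% called higher and 0.184% called lower, and 1 reached an unadjusted p under 0.05, the shared CCL3 probe set. The median log2 difference of the 6 genes was -0.09 between Combination and CHR-3996 cells, against 0.06 over all probe sets, and -0.31 for the interaction, against 0.01.

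**Figure D5:**
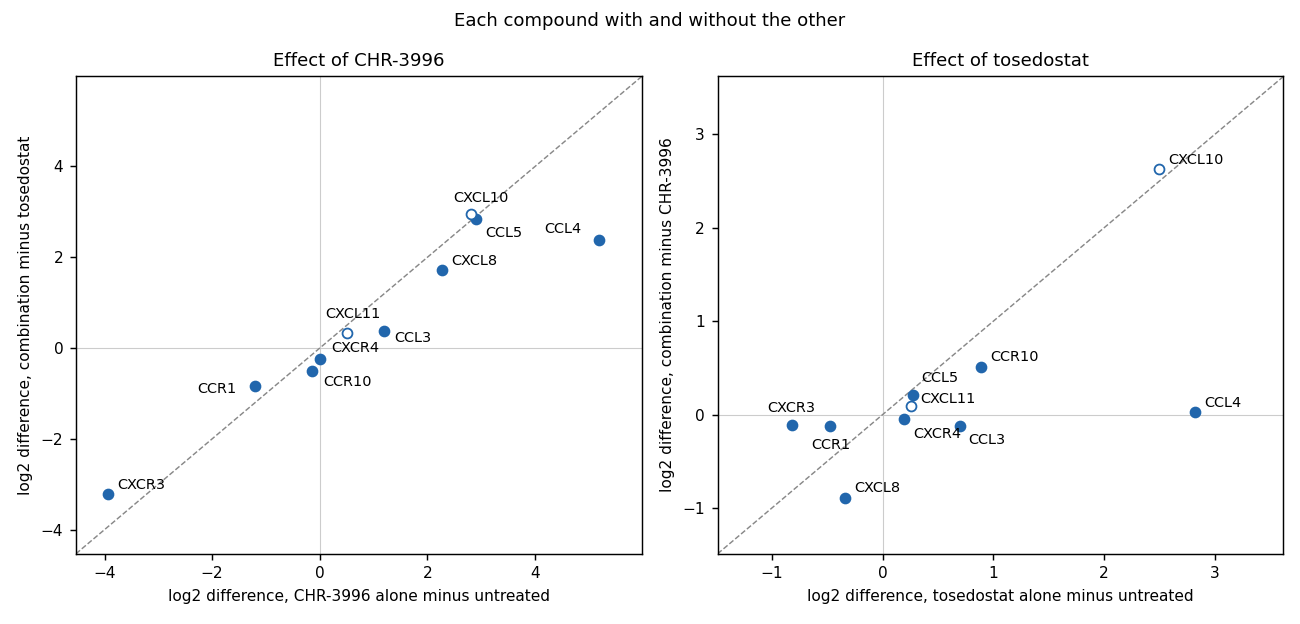
Log2 difference made by CHR-3996 (left) and by tosedostat (right) when given alone (horizontal axis) and when added to the other compound (vertical axis), 1 point per gene for group means of 3 arrays, with the line of equal differences dashed. Open points are CXCL10 and CXCL11, whose Untreated values lay under the limit of the filter on every array, so that their place along the horizontal axis is uncertain. CCL5 lies near the line for CHR-3996, at 2.90 alone and 2.85 with tosedostat, while CCL4 lies under it for tosedostat, at 2.82 alone and 0.02 with CHR-3996.

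The rest of the chemokine family was largely under the limit of the filter. Of 38 other ligands listed, 34 were measured and 13 passed. Of these 13, Combination cells had 2 called higher and 1 lower, CHR-3996 cells had 2 higher and 2 lower, and Tosedostat cells had 0 of either, with 3 at an unadjusted p under 0.05. Over all probe sets tested, 46.1% were called in either direction in Combination cells and 45.1% in CHR-3996 cells, so the called share of these ligands was below the background. CXCL16, a membrane-bound ligand of CXCR6, averaged 5.93 ± 0.06 in Combination cells, 5.59 ± 0.32 in CHR-3996 cells, 4.83 ± 0.09 in Tosedostat cells and 4.71 ± 0.54 in Untreated cells (SD, n = 3 each), and rose by 1.21 on the log2 scale in Combination cells (limma adjusted p = 0.0015) and 0.88 in CHR-3996 cells (limma adjusted p = 0.011). Its Untreated arrays read 5.07, 4.97 and 4.09, and 2 of the 3 exceeded the limit of the filter, so the size of these rises is uncertain. CCL18, a ligand made by macrophages and dendritic cells, rose by 0.60 on the log2 scale in Combination cells (limma adjusted p = 0.0043) and 0.67 in CHR-3996 cells (limma adjusted p = 0.0021). CCL26, an eosinophil attractant that binds CCR3, fell by 0.77 on the log2 scale in Combination cells (limma adjusted p = 0.0077) and by 0.85 in CHR-3996 cells (limma adjusted p = 0.0043). CCL8, a monocyte attractant, fell by 0.46 on the log2 scale in CHR-3996 cells (limma adjusted p = 0.026). There 2 of the 3 CHR-3996 arrays exceeded the limit of the filter, so the size of this fall is uncertain. Under quantile normalization the counts of this list were 1 higher and 3 lower in Combination cells and 0 higher and 3 lower in CHR-3996 cells, so its higher calls depend on the scaling.

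The ligands of CXCR4 and CCR10 were not called against Untreated cells. CXCL12, the ligand of CXCR4, differed by -0.10 on the log2 scale in Combination cells (limma adjusted p = 0.81), 0.09 in CHR-3996 cells (limma adjusted p = 0.83) and 0.21 in Tosedostat cells (limma adjusted p = 0.81). CCL28, a ligand of CCR10, differed by -0.27 on the log2 scale in Combination cells (limma adjusted p = 0.39), 0.02 in CHR-3996 cells (limma adjusted p = 0.96) and 0.78 in Tosedostat cells (limma adjusted p = 0.11). CXCL9, the remaining ligand of CXCR3, and CCL27, the other ligand of CCR10, did not pass the filter.

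Of 19 other receptors, 17 were measured and 8 passed, of which 1 was called higher in Combination cells, 2 in CHR-3996 cells and 0 in Tosedostat cells, where 0 also had an unadjusted p under 0.05. The share called higher did not exceed the 32.0% of all probe sets in Combination cells and the 29.4% in CHR-3996 cells. None was called lower, though quantile normalization gave 1 lower in Combination cells and 2 in CHR-3996 cells. CX3CR1, the receptor of fractalkine, read 5.41, 6.31 and 4.62 in Combination cells, 5.76, 6.62 and 4.57 in CHR-3996 cells, 3.27, 2.09 and 2.30 in Tosedostat cells, and 2.65, 3.17 and 2.70 in Untreated cells. CX3CR1 exceeded the 40th percentile on 2 Combination arrays, 2 CHR-3996 arrays and 0 Tosedostat and Untreated arrays, so it passed the filter only through the groups in which it is high, and neither a fold change nor a test is given for it, although it is among the calls counted. ACKR2, a decoy receptor that takes up CC chemokines without signalling, rose by 1.35 on the log2 scale in CHR-3996 cells (SE 0.41, limma adjusted p = 0.019), with 1 of the 3 Untreated arrays above the limit.

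Downstream of the receptors, 27 of 29 listed genes of G protein, arrestin and kinase signalling were tested. Of these, 9 were called higher and 4 lower in Combination cells, the same numbers in CHR-3996 cells, and 2 higher and 0 lower in Tosedostat cells. These shares were close to those over all probe sets in Combination cells, 32.0% higher and 14.1% lower, and in CHR-3996 cells, 29.4% and 15.7%, so the list did not stand out from the background there, and for Tosedostat cells the background was 3.23% higher. RGS1, a regulator that shuts off G proteins behind chemokine receptors, read 11.78, 12.67 and 11.93 in Combination cells, 11.31, 12.65 and 12.03 in CHR-3996 cells, 6.75, 7.71 and 7.15 in Tosedostat cells, and 2.28, 5.14 and 3.00 in Untreated cells. RGS1 rose by 8.65 on the log2 scale in Combination cells (SE 0.63, limma adjusted p = 1.3e-06), by 8.52 in CHR-3996 cells (SE 0.63, limma adjusted p = 1.6e-06) and by 3.73 in Tosedostat cells (SE 0.63, limma adjusted p = 0.0092). Only 1 of the 3 Untreated arrays lay above the limit of the filter, so the size of these rises is uncertain. RGS2, another regulator of G proteins, rose by 4.63 on the log2 scale in Combination cells and 4.41 in CHR-3996 cells, and GNAI1, an inhibitory G protein subunit, rose by 4.32 in Combination cells and 4.29 in CHR-3996 cells, at limma adjusted p-values of 1.6e-07 or less. RGS13 averaged 6.02 in Combination cells, 6.70 in CHR-3996 cells, 2.85 in Tosedostat cells and 3.27 in Untreated cells, and since it passed the filter only through the Combination and CHR-3996 arrays, no fold change is given. RGS13 is nevertheless among the 9 genes counted as called higher in Combination cells and the 9 in CHR-3996 cells. RGS16 rose by 1.20 on the log2 scale in Tosedostat cells (limma adjusted p = 0.013). With every array at the same median the list had 6 called higher and 6 lower in both Combination and CHR-3996 cells.

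NFκB and interferon-activated factors are known to act on several of these ligand genes, and both pathways were measured on the same arrays. Of 18 tested genes of NFκB signalling, 9 were called higher and 1 lower in Combination cells, 8 higher and 2 lower in CHR-3996 cells, and 10 higher and 0 lower in Tosedostat cells. Over all probe sets, 32.0% were called higher and 14.1% lower in Combination cells, 29.4% and 15.7% in CHR-3996 cells, and 3.23% and 0.451% in Tosedostat cells. The median log2 difference of the 18 genes from Untreated cells was 0.39 in Combination cells, 0.30 in CHR-3996 cells and 0.73 in Tosedostat cells, against 0.14, 0.11 and 0.03 over all probe sets. TNFAIP3, an inhibitor of the pathway also called A20, averaged 9.97 ± 0.22 in Combination cells, 8.22 ± 0.57 in CHR-3996 cells, 9.97 ± 0.22 in Tosedostat cells and 6.09 ± 0.29 in Untreated cells (SD, n = 3 each), and all 3 differences were called by limma. MAP3K14, the kinase NIK of the non-canonical pathway, averaged 6.95 in Combination cells, 5.82 in CHR-3996 cells, 6.29 in Tosedostat cells and 3.47 in Untreated cells, where all 3 arrays lay under the limit of the filter, so no fold change is given. MAP3K14 is nevertheless among the genes counted as called higher in all 3 treated groups, and it is part of the medians above. NFKBIA, the inhibitor IκBα, rose by 2.28 on the log2 scale in Combination cells and 2.70 in Tosedostat cells (limma adjusted p = 9.1e-05 or less in each). It also rose by 0.87 in CHR-3996 cells (limma adjusted p = 0.0049). RELB rose by 1.92 on the log2 scale in Tosedostat cells (limma adjusted p = 0.0013) and by 0.72 in Combination cells (limma adjusted p = 0.022). In CHR-3996 cells RELB was not called. NFKB2 fell by 0.69 in CHR-3996 cells (limma adjusted p = 0.00056) and by 0.58 in Combination cells (limma adjusted p = 0.0018), and was not called in Tosedostat cells. Under quantile normalization the counts were 6 higher and 4 lower in Combination cells, 6 and 5 in CHR-3996 cells and 9 and 0 in Tosedostat cells.

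Of 24 tested genes of interferon signalling, 16 were called higher and 0 lower in Combination cells, 16 higher and 1 lower in CHR-3996 cells, and 11 higher and 0 lower in Tosedostat cells, where the shares called higher over all probe sets were 32.0% in Combination cells, 29.4% in CHR-3996 cells and 3.23% in Tosedostat cells. Their median log2 difference from Untreated cells was 0.99 in Combination cells, 0.97 in CHR-3996 cells and 0.67 in Tosedostat cells, against 0.14, 0.11 and 0.03 over all probe sets. The calls higher include 2 genes, IFNGR2 and IFIT2, whose Untreated arrays all lay under the limit of the filter. Under quantile normalization 15 were called higher in Combination cells, 15 in CHR-3996 cells and 9 in Tosedostat cells. IFIT3, an interferon-induced antiviral protein, averaged 11.26 ± 0.59 in Combination cells, 11.00 ± 0.64 in CHR-3996 cells, 9.38 ± 0.28 in Tosedostat cells and 5.48 ± 0.19 in Untreated cells (SD, n = 3 each). IFIT3 rose by 5.78 on the log2 scale in Combination cells (limma adjusted p = 3.7e-07), 5.52 in CHR-3996 cells (limma adjusted p = 5.6e-07) and 3.90 in Tosedostat cells (limma adjusted p = 0.00019). IFIT1, of the same family, rose by 5.59 in Combination cells, 5.33 in CHR-3996 cells and 3.15 in Tosedostat cells on that scale, and GBP2, a guanylate-binding protein induced by interferon gamma, rose by 3.28 in Combination cells and 2.96 in CHR-3996 cells. Untreated cells averaged 4.67 for IFIT1 and 4.56 for GBP2, near the limit of the filter. In each, 2 of the 3 Untreated arrays exceeded it, so the size of these rises is uncertain. IFNGR2, a subunit of the interferon gamma receptor, averaged 6.82 in Combination cells, 5.41 in CHR-3996 cells, 6.09 in Tosedostat cells and 4.03 in Untreated cells. IFIT2 read highest in Tosedostat cells, at 7.41 ± 0.45, against 6.35 ± 0.15 in Combination cells, 5.47 ± 0.41 in CHR-3996 cells and 2.86 ± 0.44 in Untreated cells (SD, n = 3 each).

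The genes with profiles most like each of the 10 over the 12 arrays were found by the root mean square difference of values centred on their own mean, among 15586 genes, as a description. Nearest to CCL4 was PTGER4, a prostaglandin E2 receptor, which averaged 9.70 in Combination cells, 9.62 in CHR-3996 cells, 7.07 in Tosedostat cells and 4.60 in Untreated cells, at a root mean square difference of 0.44. Next came HLA-DQB1, an antigen-presenting molecule, at 0.50. Nearest to CXCL10 was the probe set assigned to MIR146A, a microRNA gene, which averaged 9.67 in Combination cells, 7.49 in CHR-3996 cells, 7.10 in Tosedostat cells and 4.87 in Untreated cells, at 0.59, followed by APOL3 at 0.77 and ADGRE1 at 0.79. CCL5 was matched most closely by SAMD9, an antiviral factor induced by interferon, at 0.23, and CXCL8 by the transcription factor SOX4 at 0.28. For CXCR3 the nearest were ANKLE1 at 0.37, DUS3L at 0.38 and TYMS, thymidylate synthase, at 0.38. CCR1 was nearest to DNAJB12 at 0.23 and CCR10 to APOL2 at 0.15. The profile of CXCR4 was nearly flat, with a root mean square of 0.21 about its own mean.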

How the data were processed

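RNA of H929 cells was amplified in 2 cycles, labelled with biotin and hybridized to 12 Affymetrix U133 Plus 2.0 arrays by the authors, and dChip was used for normalization. What the authors deposited is 1 log2 value per probe set and array. How dChip normalized and summarised the probes is not given in the sources. No depth applies to arrays, and their number limits the precision. The 62 control probe sets were left out, and 36395 of 54613 others passed the filter. A model was fitted to all 12 arrays in limma 3.58.1 (R 4.3.3) with 1 term per group (8 residual degrees of freedom), and 6 comparisons were tested with Benjamini-Hochberg adjustment within each. The fit was tested on simulated data. The members and gene lists were chosen with earlier results of these data known.

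Symbols came from the platform annotation, updated to RefSeq symbols. Of the probe sets that passed, 29161 had 1 symbol, 1365 several and 5869 none. A gene is represented by its brightest passing probe set with 1 symbol. From each list, up to 4 called genes with the largest changes and no overlap of arrays were named for each comparison with Untreated cells, and CXCL12, CCL28, CXCL9, CCL27, NFKB2 and the comparisons beyond Untreated cells were named after their values were seen. For each of the 10 genes the 3 most alike were found, and some of them are named. Promoters came from RefSeq (GRCh38.p14), and array coordinates were not used. The criteria of the study's methods (at least 2-fold, a difference over 100 and an unadjusted p under 0.05 on the linear scale) were an alternative. Plots were made in matplotlib 3.10.9 under Python 3.11.15.

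The labels number the replicates 1 to 3 in every group without saying what a number marks. Deviations of arrays of the same number from their group means correlated at r of 0.0358 to 0.288 over the 6 pairs of groups, and over 0.1 in all 3 pairs for every pair of groups but Combination with Untreated and CHR-3996 with Untreated.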

Additional observations from a re-analysis of the deposited data

Results flagged for a closer look

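The shared probe set of CCL3, CCL3L1 and CCL3L3 was singled out for the difference made by tosedostat, taken for each array from the mean of the other group. By this measure it ran in opposite directions with and without CHR-3996. Each Tosedostat array lay above the mean of Untreated cells, by 0.51 to 0.81 on the log2 scale and by 0.70 on average. Each Combination array lay below the mean of CHR-3996 cells, by 0.12 on average. Combination and CHR-3996 arrays overlapped, however, and their difference was not called (limma adjusted p = 0.84), so a fall with tosedostat there is not shown. The 2 differences lay -0.82 apart, and as the interaction of the compounds this was not called (limma adjusted p = 0.21, unadjusted p = 0.00341).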

How the results depend on the processing

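Over the 6 tested genes and 6 comparisons, no direction of a called difference reversed under any alternative run. In CHR-3996 against Untreated cells the count of genes called lower, 1, ran from 0 to 1 when arrays were left out in turn. In Tosedostat against Untreated cells the count called higher, 2, was 1 with no filter, 1 when only Tosedostat and Untreated arrays were fitted, 0 by the criteria of the methods, and 1 to 2 when arrays were left out. In Combination against Tosedostat cells the count called higher, 2, was 1 by the criteria of the methods and 1 with the next brightest probe set of each gene. The count called lower there, 1, was 3 under quantile normalization, 2 with every array at the same median, 2 with the replicate number as a block, 0 by the criteria of the methods, 2 with the next brightest probe set, and 0 to 2 when arrays were left out. The cause was not tested. The interaction uses all 4 groups, so it had no fit on compared arrays alone and no value by the criteria of the methods. The other counts of called genes stayed within 1.5 times their value. With the replicate number as a block, which the labels do not explain, CCR1 alone of the tested genes gained a call, and the probe sets called for tosedostat were 1936 higher and 373 lower, against 1174 and 164 without it. For the interaction they were 42 and 189, against 8 and 67. For single genes, leaving out an array gave the same result in 630 cases, lost a call in 13 and gained one in 5, and the other settings gave the same result in 396, lost a call in 2 and gained one in 9. These cases include the picked genes CCL4, CXCL10 and CXCR3, and CXCL11 with no filter, which had no call to lose. For those genes the same result means only that the value moved by less than the largest SD between replicates. In 4 cases the second probe set of CXCR3 gave a smaller difference by more than the spread between replicates. A gene near or under the filter limit, such as CXCL11 or the Untreated values of CXCL10, has no reliable fold change here.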
